A study of Mus musculus with 33 samples.

Results

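The microRNAs miR-203, miR-205, miR-375 and miR-31 are known chiefly from surface and glandular epithelium, and they were followed in mouse lung after carbon black nanoparticles entered the airway. They were taken by name, as the entries mmu-miR-203, mmu-miR-205, mmu-miR-375 and mmu-miR-31 without a star, and are 4 of the 611 mouse miRNAs on the array. Of these 4, 3 were above background often enough to be tested and miR-205 was not, among 172 miRNAs tested in all. No change after carbon black passed the threshold for miR-31 or miR-375 on any day. No exposed array had miR-203 above background at day 1 or 3, so it was compared at day 28 only. Its day 28 difference did not pass either, with miR-203 above background on 2 of 5 exposed arrays.

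A miRNA is a short RNA that guides a silencing complex to messenger RNAs, mainly by pairing of its seed, bases 2 to 8 from the 5′ end. In skin, miR-203 is made in differentiating cells and represses the stem cell factor p63. miR-205 marks basal and other stratified epithelial cells, and together with the miR-200 family it represses Zeb1 and Zeb2, which drive epithelial cells toward a mesenchymal form. miR-375 is abundant in pancreatic islets, where it limits insulin secretion, and in neuroendocrine cells. miR-31 is induced in proliferating keratinocytes and in squamous cancers. In the lung, basal cells line the trachea and large airways, and neuroendocrine cells are scattered singly or in small clusters along the airways, so both are a small share of whole lung.

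All mice were female C57BL/6, a common inbred strain, and no source used here gives their age. Exposed mice were instilled through the trachea with nanosized carbon black (Printex 90, 0.162 mg per mouse). Control mice were instilled with the same vehicle without particles, 0.9% saline holding 10% lavage fluid freed of cells. Lungs were taken on day 1, 3 or 28. The exposed groups hold 6, 4 and 5 arrays at days 1, 3 and 28, and the control groups hold 6 arrays on each day. The series design speaks of individual RNA from 6 mice per group, so each array was treated as 1 mouse.

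The mature sequences of 3 of the miRNAs are shown because the seed decides which messages each can pair with. The seed is in capitals, and the sequences and positions are from RefSeq for mouse build GRCm38.p6.
miR-203 (3p arm), chr12:112130927-112130948, plus strand: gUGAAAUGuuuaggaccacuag
miR-205 (5p arm), chr1:193507503-193507524, minus strand: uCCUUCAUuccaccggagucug
miR-31 (5p arm), chr4:88910614-88910635, minus strand: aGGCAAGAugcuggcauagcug
The fourth is miR-375, 3p arm. The partner strands that the array also measures, named with a star, are shown because they come from the same hairpins.
miR-203* (5p arm), chr12:112130889-112130910, plus strand: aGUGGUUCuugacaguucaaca
miR-31* (3p arm), chr4:88910577-88910599, minus strand: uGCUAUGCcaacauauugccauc
The 5 seeds all differ from each other. Among the 1738 mature mouse entries of the RefSeq table, the number of other miRNAs sharing a seed was 0 for each of the 5. The 3 members printed are thus not a seed family, and all 4 were grouped by where they are known to be expressed.

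The 4 genes are not a genomic cluster either. Mir203 lies at chr12:112130880-112130955 on the plus strand, overlapping the annotated miRNA gene Gm51289, and its nearest protein-coding gene, Aspg, is 3307 bases away. Mir205 lies at chr1:193507463-193507530 on the minus strand within the long non-coding RNA gene Mir205hg. Mir375 lies at chr1:74900658-74900721 on the minus strand, overlaps no annotated gene, and is 1350 bases from Cfap65. Mir31 lies at chr4:88910557-88910662 on the minus strand and overlaps the long non-coding RNA gene Gm49890. Mir205 and Mir375 share a chromosome but not a neighbourhood.

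The arrays measure fluorescence, and the number of arrays limits the precision. Values below are the processed signal of a miRNA's brightest probe after each array was scaled to a common 75th percentile, given as log2. They rank arrays and groups within 1 miRNA, and not 1 miRNA against another, since probes differ in brightness. A miRNA is called above background on an array where over 50% of its unflagged spots were well above background. Testing required this of 4 or more arrays in some group. Before scaling, the 75th percentile ran from 187 to 1211 intensity units over the 33 arrays. At day 1 the exposed arrays were 1.58-fold brighter than the control arrays, at day 3 they were 1.05-fold dimmer, and at day 28 they were 1.53-fold dimmer. Exact two-sided permutation tests of these brightness differences gave p = 0.0779, 0.848 and 0.0649 over 6 against 6, 4 against 6 and 5 against 6 arrays (0.117, 0.848 and 0.117 after Benjamini-Hochberg over the 3). On every slide the exposed arrays sat at other positions than the control arrays, so exposure and array position cannot be told apart.

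The tissue carried lung miRNAs. Of 7 listed, 6 were above background on all 33 arrays, including miR-126-3p of endothelium, miR-30a and miR-200c of epithelium. Of the list's members only miR-34b-3p was above background on 0 arrays. Of 8 miRNAs in the list of other epithelial miRNAs, 6 were above background on all 33 arrays, among them miR-200b, miR-200a and miR-200c. The last of these is also in the lung list. miR-182 of the same 8 was above background on 0 arrays. None of the 4 miRNAs described here was above background on all 33 arrays. Of 5 neuroendocrine and neural miRNAs, miR-7a was above background on 25 arrays, and miR-7b, miR-9, miR-124 and miR-153 on 0.

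The 4 miRNAs differed widely in how often they were seen. miR-31 was above background on 27 of 33 arrays, miR-375 on 19, miR-203 on 8 and miR-205 on 0. The partner strands miR-203* and miR-31* were above background on 0 of 33 arrays each. Arrays with a miRNA above background were brighter by median, with overlapping ranges. Arrays with miR-203 above background had a 75th percentile of 787 to 1211 (median 1073), and the other arrays had 187 to 985 (median 583). For miR-375 the ranges were 321 to 1211 (median 787) with the miRNA above background and 187 to 1095 (median 484) without. For miR-31 they were 377 to 1211 (median 686) with it and 187 to 547 (median 337) without. A count of arrays above background may therefore differ with array brightness as well as with the miRNA, and the part of brightness in the counts was not tested.

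**Figure D1:**
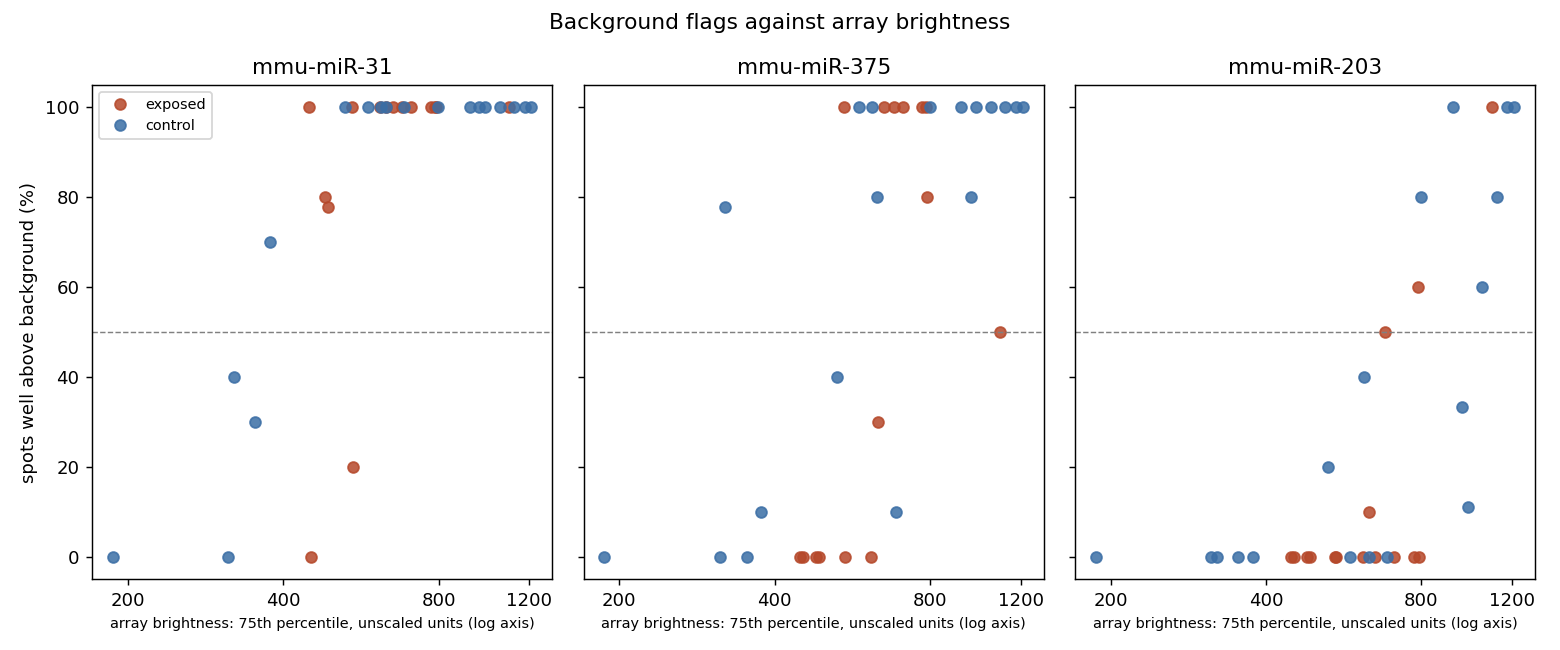
Percent of a miRNA's unflagged spots that were well above background (vertical axis) against the array's 75th percentile of signal before scaling, in intensity units on a log axis, for miR-31, miR-375 and miR-203. Each point is 1 of 33 arrays, exposed in red and control in blue, and the dashed line marks the 50% needed to count as above background. miR-203 passed the line on 8 arrays, all at a 75th percentile of 787 or more, whereas miR-31 passed it on 27.

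miR-205 was not seen. Its brightest probe had processed signals between -3.98 and 3.48 intensity units over the 33 arrays, against a median spread of 1.66 units (SD) between the spots of that probe on 1 array. Its scaled value lay at the lowest allowed value on 32 arrays. Neither of its probes was above background on any array, exposed or control, at day 1, 3 or 28. No level, difference or order of groups can be given for miR-205, and a level under the array's background was not detectable.

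miR-203 stood close to background. At day 1 it was above background on 0 of 6 exposed and 0 of 6 control arrays, at day 3 on 0 of 4 exposed and 1 of 6 control arrays, and at day 28 on 2 of 5 exposed and 5 of 6 control arrays. By spots, 8.47% of exposed and 8.47% of control spots were well above background at day 1. The shares were 2.63% in exposed and 24.1% in control lungs at day 3, then 31.2% in exposed and 70.0% in control lungs at day 28. The 5 control arrays of day 28 that passed had a 75th percentile of 799 to 1211, and the 2 exposed arrays 787 and 1095. For day 1 no fold or bound is given, because no array of either group measured the miRNA. For day 3 no fold is given, because no exposed array measured it and the bound was under 1.

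At day 28, log2 values for miR-203 were 2.13, 3.04, 3.19, 3.26 and 3.36 on the 5 exposed arrays, against 2.55 (lowest), 3.08 (median) and 3.32 (highest) on the 6 control arrays. The groups overlapped, with 1 exposed array below all controls and 1 above all controls, neither of them above background. The means were 2.99 ± 0.50 in exposed lungs and 3.04 ± 0.31 in control lungs (SD, n = 5 and 6). The difference was -0.04 ± 0.49 (log2, SE, with a 95% interval of -1.04 to 0.96), with an adjusted p of 0.986 by limma. Control lungs of day 28 were the only group through which miR-203 met the rule for testing. That group is 1 side of this difference, and only 2 of 5 exposed arrays had miR-203 above background. Neither a change nor its absence is therefore read from the difference and its p. Among the 172 miRNAs, 0 (0%) passed an adjusted p of 0.05 at day 28. The interval admits changes of up to about 1 log2 unit either way. The sign turned without exposed replicate 12 (0.17) and without control replicate 28 or 32 (0.02 each). Whole-lung RNA cannot tell fewer cells of a type from less RNA per cell, here or for the other 2 measured miRNAs.

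miR-375 was above background on 5 of 6 exposed and 2 of 6 control arrays at day 1, on 1 of 4 exposed and 4 of 6 control arrays at day 3, and on 1 of 5 exposed and 6 of 6 control arrays at day 28. Of its spots, 79.7% in exposed and 32.8% in control lungs were well above background at day 1. At day 3 this was 33.3% in exposed and 67.8% in control lungs, and at day 28 it was 30.0% in exposed and 96.4% in control lungs. On 1 exposed array of day 28, the brightest of its group, exactly 5 of 10 spots were well above background, just short of the requirement. The brighter group, exposed at day 1 and control at day 28, had more arrays above background on those days. At day 3 the groups were about equally bright, the exposed arrays 1.05-fold dimmer, and the control group had the larger share above background.

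At day 1, log2 values for miR-375 were 2.92 (lowest), 3.84 (median) and 4.87 (highest) on the exposed arrays, against 2.51, 3.12 and 4.42 on the control arrays. At day 3 they were 2.95, 3.10, 3.59 and 4.29 on the 4 exposed arrays, against 3.29 (lowest), 3.83 (median) and 4.31 (highest) on the 6 control arrays. At day 28 they were 2.61, 3.06, 3.11, 3.21 and 3.62 on the exposed arrays, against 3.59 (lowest), 3.63 (median) and 4.73 (highest) on the control arrays. The groups overlapped broadly at days 1 and 3. At day 28, 4 of 5 exposed arrays lay below every control array, and the fifth lay among the lower controls.

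**Figure D2:**
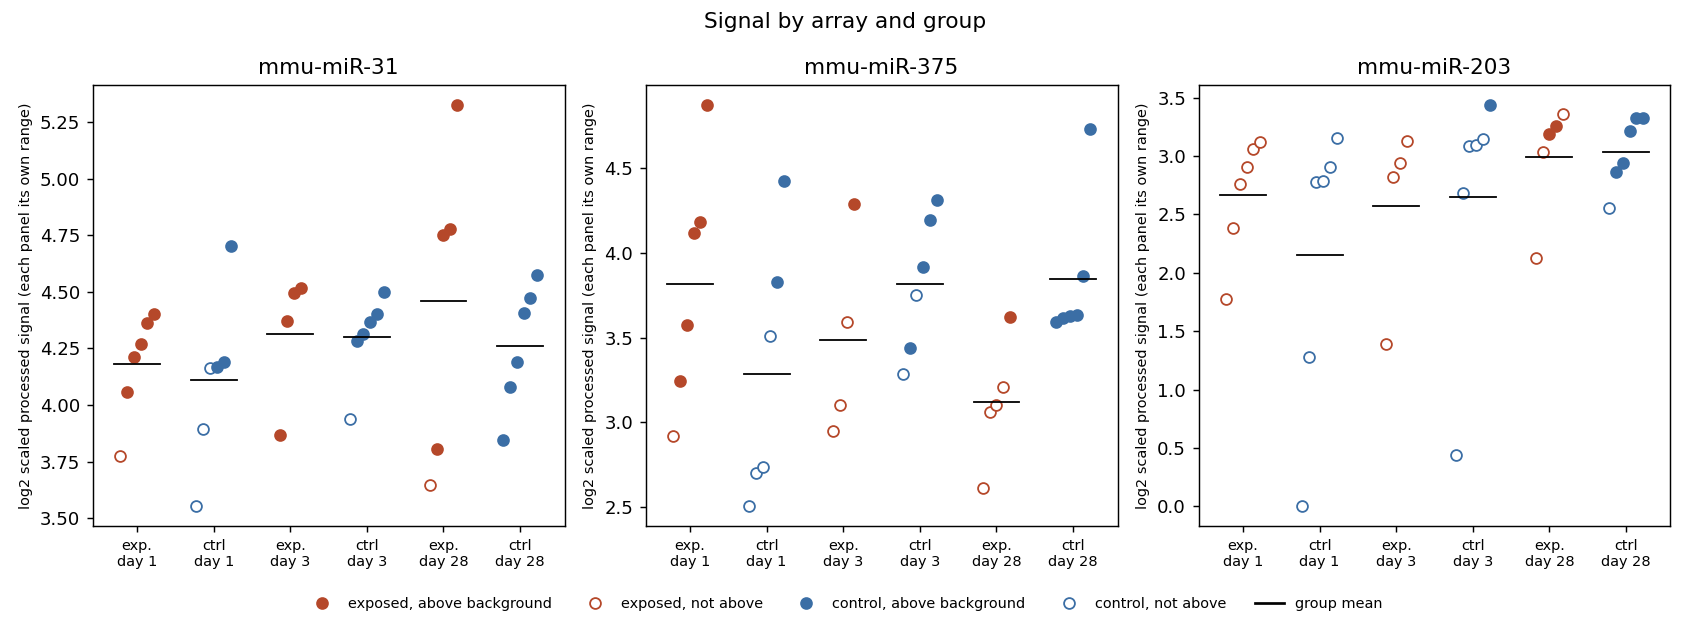
Log2 scaled processed signal (vertical axis, a range of its own in each panel) of miR-31, miR-375 and miR-203 on each array, by group (horizontal axis, exposed left of control at days 1, 3 and 28). Filled points are arrays where the miRNA was above background, open points are arrays where it was not, and the black lines are group means. miR-375 at day 28 lies at 2.61 to 3.62 in exposed lungs and at 3.59 to 4.73 in control lungs, and miR-31 at day 28 lies at 3.65 to 5.33 in exposed lungs, around the control range of 3.85 to 4.58.

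At day 1 miR-375 averaged 3.82 ± 0.71 in exposed and 3.28 ± 0.76 in control lungs (SD, n = 6 and 6). At day 3 the means were 3.48 ± 0.60 in exposed and 3.82 ± 0.41 in control lungs (SD, n = 4 and 6), and at day 28 they were 3.12 ± 0.36 in exposed and 3.84 ± 0.44 in control lungs (SD, n = 5 and 6). The exposed minus control differences were 0.53 ± 0.32 at day 1, -0.33 ± 0.36 at day 3 and -0.72 ± 0.34 at day 28 (log2, SE), with adjusted p of 0.487, 0.996 and 0.628 by limma. None passed the threshold, and 0 of 172 miRNAs (0%) passed it on each of these days. The 95% intervals were -0.12 to 1.19, -1.07 to 0.40 and -1.41 to -0.033. The fitted day 28 value was 1.65-fold lower in exposed lungs, where only 1 of 5 arrays had miR-375 above background, and its unadjusted p in limma was 0.0405. On that day 13 of 172 miRNAs (7.56%) had an unadjusted p under 0.05, and at days 1 and 3 16 (9.3%) and 2 (1.16%) had. By size of the difference at day 28, miR-375 ranked 9th among the 172. With a floor of 10 units that difference was -0.46, with Agilent's total gene signal -1.76 and in the authors' series table -0.15, and none passed the threshold.

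For miR-375 at day 28, an exact two-sided permutation test over the 11 arrays gave p = 0.00649. The test exchanged arrays freely between slides, although arrays of a slide were correlated (0.36 with slide as a random block). Of the 172 miRNAs, 21 (12.2%) fell under 0.05 in the same test, and after Benjamini-Hochberg over all 172 the value for miR-375 was 0.266. At days 1 and 3 the exact permutation p for miR-375 was 0.234 and 0.310, and 8.72% and 1.74% of the 172 miRNAs fell under 0.05. Averaged over the 3 days the difference was -0.17 ± 0.20 (log2, SE), with an adjusted p of 0.782 by limma, where 1 of 172 miRNAs (0.581%) passed.

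The day 28 difference of miR-375 was also read on single slides, each holding both groups. The 5 within-slide differences were -1.02, -0.65, -0.53, -0.53 and 0.0041, lower in the exposed lung on 4 of 5 slides. On 4 of these slides the exposed array was the dimmer one before scaling. On the slide with -1.02 it was the brighter one, with a 75th percentile of 1095 in the exposed and 633 in the control array. At day 1 the within-slide differences ran from -0.26 to 1.48, higher in 5 of 6 pairs, and at day 3 from -0.81 to 0.10, lower in 3 of 4 pairs. The correlation of miR-375 with array brightness (log2 75th percentile) over the 33 arrays was 0.38, and the part of brightness in these differences was not tested. A second miR-375 probe, above background on 1 array, gave 0.69, -0.74 and -1.24 at days 1, 3 and 28.

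**Figure D3:**
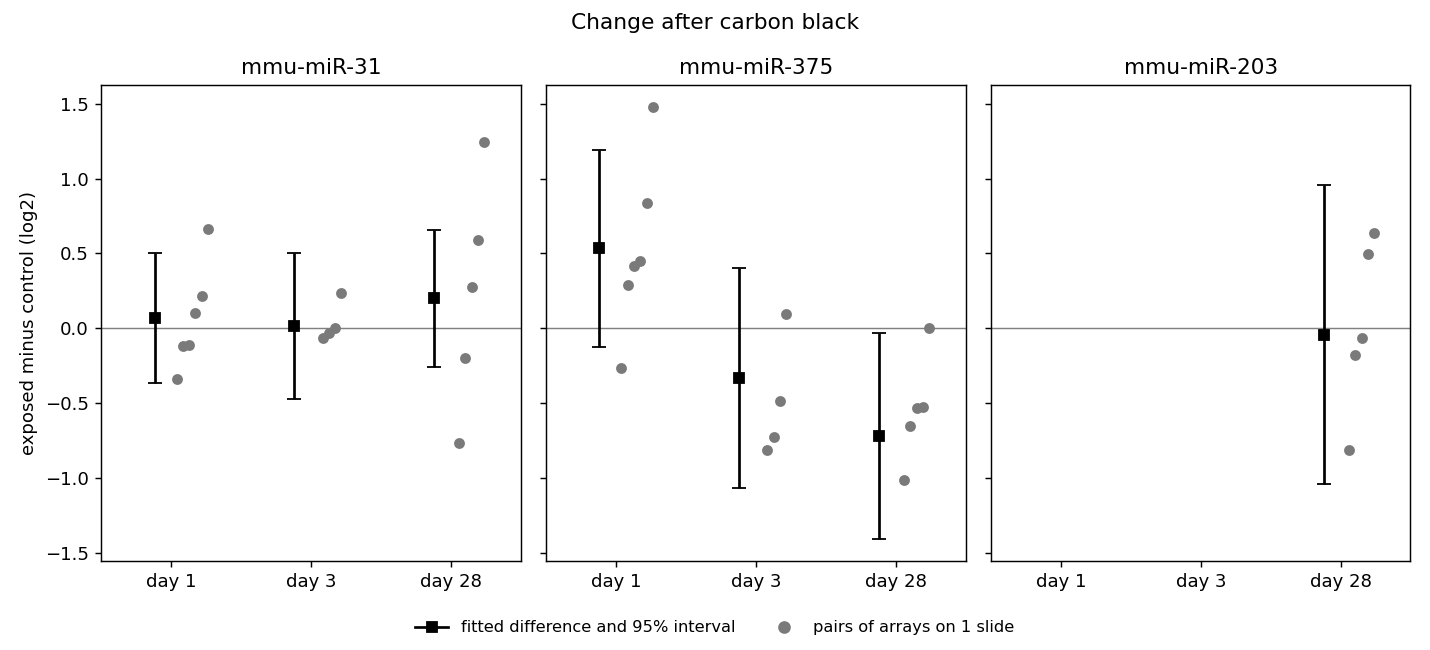
Exposed minus control difference in log2 scaled signal (vertical axis) at days 1, 3 and 28 (horizontal axis) for miR-31, miR-375 and miR-203. Black squares are fitted differences with 95% intervals and grey points are pairs of arrays on 1 slide. miR-203 is drawn at day 28 only. For miR-375 the squares lie at 0.53, -0.33 and -0.72, and for miR-31 at 0.07, 0.01 and 0.20.

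The exposure difference of miR-375 was compared between days. The difference at day 28 was -1.25 ± 0.47 (log2, SE) relative to that at day 1, with an unadjusted p of 0.0114 by limma. In that comparison 13 of 172 miRNAs (7.56%) had an unadjusted p under 0.05. The adjusted p of miR-375 was 0.489 by limma, where 0 of 172 miRNAs (0%) passed. The test over all 3 days gave an unadjusted p of 0.0329, which 7 of 172 miRNAs (4.07% at 0.05) reached, and an adjusted p of 0.990 by limma. Within exposed lungs, miR-375 at day 28 was -0.70 ± 0.34 relative to day 1 (unadjusted p 0.0474, adjusted p 0.312 by limma, 0 of 172 or 0% passing), and 15.7% of the 172 had an unadjusted p under 0.05. Relative to day 3, exposed lungs were at -0.36 ± 0.37 (adjusted p 0.616 by limma, 3 of 172 or 1.74% passing). Within control lungs, miR-375 at day 28 was 0.56 ± 0.32 relative to day 1 (adjusted p 0.262 by limma, 12 of 172 or 6.98% passing) and 0.03 ± 0.32 relative to day 3 (adjusted p 0.972 by limma, 1 of 172 or 0.581% passing). Over the 3 days the adjusted p was 0.526 in exposed and 0.436 in control lungs, by limma. The day 28 minus day 1 differences of exposed and control lungs had opposite signs, and neither passed the threshold.

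miR-31 was the most often seen of the 4. It was above background on 5 of 6 exposed and 3 of 6 control arrays at day 1, on 4 of 4 exposed and 5 of 6 control arrays at day 3, and on 4 of 5 exposed and 6 of 6 control arrays at day 28. Of its spots, 86.2% in exposed and 49.2% in control lungs were well above background at day 1. At day 3 this was 94.9% in exposed and 89.5% in control lungs, and at day 28 it was 77.1% in exposed and 100% in control lungs.

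At day 1, log2 values for miR-31 were 3.78 (lowest), 4.24 (median) and 4.40 (highest) on the exposed arrays, against 3.55, 4.17 and 4.70 on the control arrays. At day 3 they were 3.87, 4.37, 4.50 and 4.52 on the exposed arrays, against 3.94 (lowest), 4.34 (median) and 4.50 (highest) on the control arrays. At day 28 they were 3.65, 3.81, 4.75, 4.78 and 5.33 on the exposed arrays, against 3.85 (lowest), 4.30 (median) and 4.58 (highest) on the control arrays. The groups overlapped at days 1 and 3. At day 28 all 5 exposed arrays lay outside the control range, 2 below it and 3 above it.

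At day 1 miR-31 averaged 4.18 ± 0.23 in exposed and 4.11 ± 0.38 in control lungs (SD, n = 6 and 6). At day 3 the means were 4.31 ± 0.30 in exposed and 4.30 ± 0.19 in control lungs (SD, n = 4 and 6), and at day 28 they were 4.46 ± 0.71 in exposed and 4.26 ± 0.27 in control lungs (SD, n = 5 and 6). The differences were 0.07 ± 0.21 (95% interval -0.37 to 0.51), 0.01 ± 0.24 (-0.48 to 0.50) and 0.20 ± 0.22 (-0.26 to 0.66) at days 1, 3 and 28 (log2, SE). Their adjusted p values by limma were 0.863, 0.996 and 0.931, and the exact permutation p values were 0.721, 0.919 and 0.539. The mean over days was 0.09 ± 0.13, with an interval of -0.17 to 0.36 and an adjusted p of 0.800 by limma. Each sign rested on single arrays. Without control replicate 27 the day 1 difference was -0.04, and without exposed replicate 8 the day 28 difference was -0.02. Leaving out control replicate 2 or exposed replicate 11, 16 or 33 turned day 3 to between -0.06 and -0.01.

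Within slides, miR-31 was higher in exposed lungs in 3 of 6 pairs at day 1 (-0.34 to 0.66), in 1 of 4 at day 3 (-0.07 to 0.24) and in 3 of 5 at day 28 (-0.77 to 1.25). The correlation of miR-31 with array brightness was 0.49 over the 33 arrays. Its second probe, above background on 6 arrays, gave 0.06, -0.04 and 0.26 at days 1, 3 and 28, close to the values of the probe used. Across days, the adjusted p for miR-31 was 0.835 in exposed and 0.809 in control lungs by limma, where 0 (0%) and 2 (1.16%) of 172 miRNAs passed. For miR-203 these were 0.878 and 0.462, with no array above background in 3 of the 6 groups. It met the rule for testing only through control lungs of day 28, so these 2 values are not read as a result about miR-203.

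Ordered by group mean, miR-31 was highest in exposed lungs of day 28, then exposed day 3, control day 3, control day 28, exposed day 1 and control day 1. Neighbours in that order differed by 0.15 log2 units or less, which is under the SD of 1 or both groups in each case. For miR-375 the order was control day 28, exposed day 1, control day 3, exposed day 3, control day 1 and exposed day 28, with the first 3 within 0.03 of each other and no neighbours apart by more than their SD.

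The other epithelial miRNAs were set beside them. Of the 7 tested, 0 rose and 0 fell on each day, with median differences of -0.07, -0.003 and -0.04 at days 1, 3 and 28, against medians over all 172 miRNAs of -0.10, -0.04 and -0.03. miR-7a, found in neuroendocrine cells and the only measured one of its list, had differences of 0.36, -0.05 and 0.29. At day 28 it ran opposite in sign to miR-375.

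Other tissues can contribute to whole lung, and their lists were read for the same arrays. Striated muscle miRNAs miR-1, miR-133a and miR-133b had differences of 0.64 (median) at day 1, -1.35 at day 3 and -1.35 at day 28, with 0 of 3 passing the threshold on any day, and miR-206 was above background on 0 arrays. Their mean level ran from 2.99 to 7.90 in exposed and 2.84 to 7.90 in control lungs at day 1, from 2.77 to 4.26 in exposed and 3.96 to 6.67 in control lungs at day 3, and from 2.71 to 4.23 in exposed and 3.01 to 5.86 in control lungs at day 28 (log2). The signs follow those of miR-375 on all 3 days, and the part of muscle RNA in the miR-375 values was not tested. At day 1 the differences were 0.84 for miR-1 (SE 0.755), 0.39 for miR-133b (SE 0.72) and 0.64 for miR-133a (SE 0.73), so their sign is uncertain. At day 28 they were -1.555 (SE 0.79), -1.35 (SE 0.75) and -1.23 (SE 0.765). miR-133b was above background on 16 arrays and miR-133a on 10. Of the gut list, miR-192 was tested and had -0.08, -0.01 and 0.09, and miR-215 was above background on 0 arrays. Of 4 ciliated miRNAs 2 were tested, with medians of -0.15, 0.06 and -0.23, and 0 passed. Lymphoid and thymus miRNAs had medians of -0.05, -0.06 and 0.05, and myeloid miRNAs had 0.51, 0.02 and 0.15, with 0 passing in either list.

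The tested miRNAs most like each member over the 33 arrays were named for the 2 members above background on at least 17 arrays. These correlations are descriptions: the points share scaling, brightness and slides. For miR-375 the closest was miR-34b-5p (Pearson r 0.82, and 0.86 with group means removed), then miR-34c (0.73 and 0.76), both of multiciliated cells. Exposure differences at days 1, 3 and 28 were 0.53, -0.33 and -0.72 for miR-375. For miR-34b-5p they were 0.21 ± 0.31, -0.33 ± 0.35 and -0.21 ± 0.33 (log2, SE), with the signs of miR-375 on each day. For miR-34c they were 0.12 ± 0.30, -0.42 ± 0.34 and -0.20 ± 0.32, with the same signs. Both were picked by their correlation with miR-375 over these same arrays, so shared signs follow in part from that choice. The other tested member of the ciliated list, miR-449a, had -0.42, 0.55 and -0.27, with signs opposite to miR-375 at days 1 and 3. Its SE was 0.45 at day 1 and 0.47 at day 28. Next by correlation came miR-1 (0.68 and 0.61) and miR-133b (0.66 and 0.63, above background on 16 arrays), both of striated muscle. After them came miR-429 of the miR-200 family (0.65 and 0.69). Its differences were -0.07, -0.11 and -0.11, opposite in sign to miR-375 at day 1. The median correlation of miR-375 with all other tested miRNAs was 0.08. Without the 2 arrays farthest from the median, the correlation with miR-34b-5p was 0.76, and Spearman's rho over all arrays was 0.82.

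For miR-31 the closest were miR-146b (0.69, and 0.75 with group means removed) and miR-146a (0.64 and 0.64). Of these, miR-146a is induced by NF-kB and dampens its signalling. miR-27b (0.57 and 0.63), miR-141 of the miR-200 family (0.52 and 0.54) and miR-425 (0.51 and 0.47, above background on 20 arrays) followed, and the median over all was 0.004. Without the 2 farthest arrays the correlation with miR-146b was 0.58, and Spearman's rho over all arrays was 0.54. The sequences of the leading miRNAs are shown because the 2 closest to miR-31 carry 1 seed between them, which differs from that of miR-31.
miR-34b-5p, chr9:51103610-51103632, minus strand: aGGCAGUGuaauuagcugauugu
miR-146a (5p arm), chr11:43374435-43374456, minus strand: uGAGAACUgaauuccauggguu
miR-146b (5p arm), chr19:46342790-46342811, plus strand: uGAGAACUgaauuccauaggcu
At day 28, miR-146b was 6.92 ± 1.15 in exposed and 5.78 ± 0.13 in control lungs (SD, n = 5 and 6), a difference of 1.14 ± 0.34 (log2, SE) with an adjusted p of 0.166 by limma. The exposed arrays with miR-31 above its control range were also the 3 highest for miR-146b. These arrays enter the correlation by which miR-146b was picked, so this is not a separate observation. miR-34b-5p was 8.28 ± 0.37 in exposed and 8.50 ± 0.54 in control lungs on that day, a difference of -0.21 ± 0.33 with an adjusted p of 0.985 by limma.

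**Figure D4:**
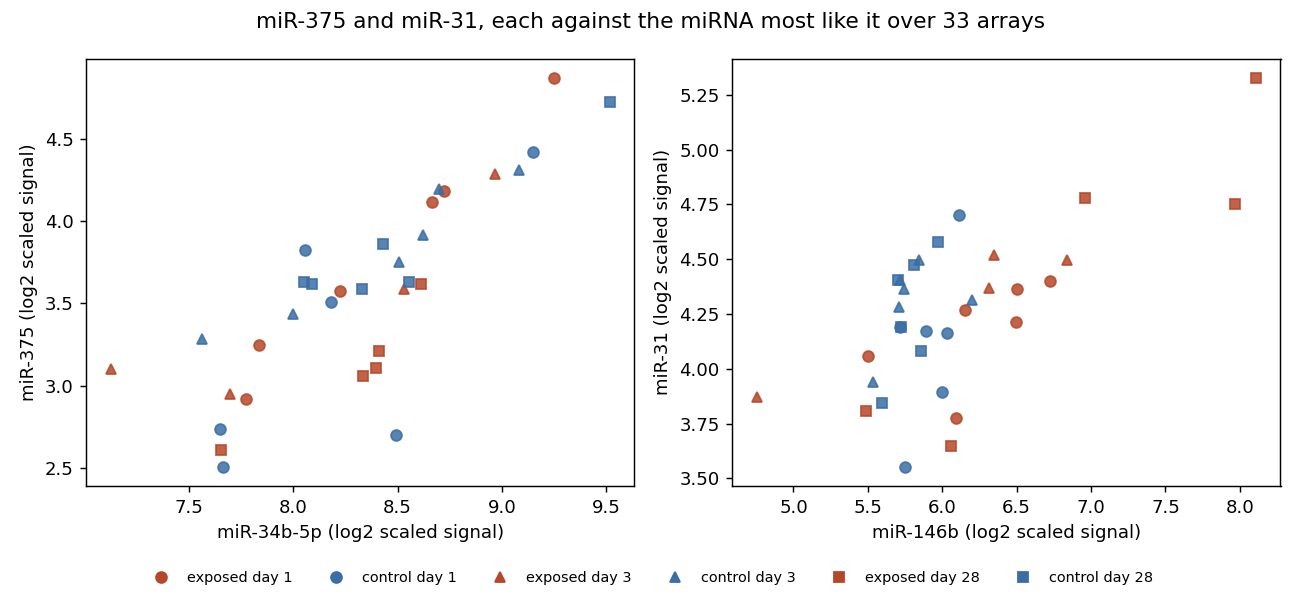
Log2 scaled signal of miR-375 against miR-34b-5p (left) and of miR-31 against miR-146b (right), 1 point for each of 33 arrays, exposed in red and control in blue, with circles, triangles and squares for days 1, 3 and 28. The correlations are 0.82 and 0.69, and 3 exposed arrays of day 28 stand at the top right of the miR-31 panel.

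Between themselves, miR-375 and miR-31 had a correlation of 0.09 over the 33 arrays (0.15 with group means removed). miR-203, above background on 8 arrays only, is left out of this comparison.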

How the data were processed

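Single-colour Agilent arrays for mouse miRNA were run on lung RNA of 33 mice carrying the Cy3 dye, per the labels' protocols. Deposited by the authors were scanner files with linear intensity per spot, made with Feature Extraction 10.7.3.1, and background had already been taken off the processed signal, per the file headers. The authors' series table holds log2 values (column medians 5.41 to 5.43). Against the scanner files' median signal in log2, its columns had correlations of 0.991 to 0.999, its direction is brighter as higher, and its scaling and centring stay unknown, so it served only as an alternative. No source used here names the miRNA annotation release.

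Of 13715 spots per array, 13000 were not controls. Control spots and spots with outlier flags (2.30%) were left out, and 0 spots were saturated. The mean processed signal of each of 1857 probes was scaled per array to an equal 75th percentile of the 156 probes that every array detected, floored at 1, and logged (log2). The brightest probe stands for a miRNA. Above background means over 50% of its unflagged spots for any probe, and 172 miRNAs above background on at least 4 arrays of 1 group were tested. A group in which no array measured a miRNA has only a bound, the higher per array of the probe's own signal and the lowest signal among probes above background. The log2 values went into limma 3.58.1 (R 4.3.3), 6 group means in 1 model with an intensity trend, two-sided, Benjamini-Hochberg over the 172, threshold 0.05. Exact permutation tests ran over the arrays of a day, without regard to slide. Groups came from the labels, and p-values measure the spread between arrays. The model was tested on simulated data.

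Named were the 4 miRNAs, their star strands, up to 3 examples of each marker list beside members above background on no array, and the 5 tested miRNAs most correlated with each member above background on at least 17 arrays. The members, lists and tests were chosen with earlier results of these data known. Unstarred array names were read as the 3p arm for miR-203 and miR-375 and the 5p arm for miR-205, miR-31, miR-34c, miR-146a and miR-146b. Arrays lay on 9 slides scanned on 5 days. Alternatives were other scalings, background correction by normexp with an offset of 50 (on the median signal and median background, since the files used have no mean signal column), probe rule, filter, floor of 10, slide as a block, the series table and leaving out each array.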

Additional observations from a re-analysis of the deposited data

Results flagged for a closer look

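In a group of 4 to 10 arrays, the highest or lowest value was tested for standing apart by Dixon's criterion, which chance meets in about 1 in 20 groups. It was met in 4 of 25 groups of values. For miR-375, control replicate 32 of day 28 was highest at 4.73, against 3.86 for the next array, and without it the exposed minus control difference of day 28 was -0.54. For miR-203, exposed replicate 12 of day 28 was lowest at 2.13, against 3.04 for the next array, and it was not above background. Control replicate 2 of day 3 was lowest for miR-203 at 0.44, against 2.69 for the next, and was also not above background. For miR-205, control replicate 17 of day 1 was highest at 1.82 where the others had been set to the floor, at 0, so its gap rests on the floor, and it was not above background.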

How the results depend on the processing

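No call changed for exposure differences of miR-31, miR-375 or, at day 28, miR-203 under any setting run, and miR-205 had no test. For miR-375 at day 28 the difference stayed below 0 in every setting except normexp (0.30, where the median of all miRNAs was 0.28), from -1.76 (total gene signal) to -0.15 (series table), with adjusted p values by limma of 0.170 or more, and the part of each choice was not tested. With the percentile over all probes the median of all miRNAs at day 28 was -0.28 and without scaling -0.65, and relative to it miR-375 was -0.69 in both. The difference was -0.74 with slide as a fixed block and -0.73 as a random block, with adjusted p of 0.325 and 0.248 by limma. Total gene signal moved others, to 1.30 for miR-31 and 1.21 for miR-375 at day 1, -1.78 for miR-375 at day 3 and -1.05 for miR-203 at day 28, with adjusted p of 0.257 or more by limma. Under normexp, day 1 turned to -0.47 for miR-31 and -0.44 for miR-375, and day 28 to 0.46 for miR-203, which was 0.0067 with a floor of 10. miR-31 turned at day 3 to -0.0011 (total gene signal), -0.028 (percentile over all probes), -0.059 (no scaling) and -0.012 (mean over probes), and at day 28 to -0.045 (percentile over all probes) and -0.42 (no scaling). These last settings shift all miRNAs of an array alike, and relative to the median of all, miR-31 was 0.05 at day 3 and 0.23 at day 28 with the percentile over all probes and without scaling, as in the values reported. Across control days, adjusted p for miR-31 was 0.00398 with normexp and 0.0355 without scaling, and for miR-375 0.00587 and 0.0306, both by limma; these 2 settings called 120 and 117 miRNAs there. Other settings moved the number of miRNAs called. At day 1 (0 called) it was 3 with total gene signal, percentile over all probes or no filter, 4 with quantile, 6 without scaling, 2 with mean over probes, a random block or without slide 1, and 1 with miRNAs above background on all arrays. At day 3 (0) it was 1 without slide 1. At day 28 (0) it was 1 with normexp, quantile, no filter, a floor of 10 or without slide 1. For the mean over days (1) it was 14 with a fixed block, 6 without slide 1, 4 with a random block, 2 with quantile or mean over probes, and 0 with percentile over all probes, the series table, a floor of 10 or only miRNAs above background on all arrays. Across control days (2) it was 12 with a random block, 5 without a filter, 1 with mean over probes, a fixed block, without slide 1 or with the 94 miRNAs above background on all arrays, and 0 with total gene signal, quantile, percentile over all probes or the series table. Across exposed days (0) it was 4 with a random block or without slide 1, and for differences between days (0) it was 1 without a filter. Among the 94 miRNAs none of the 4 remained. Leaving out 1 array gave 0 to 2 calls at day 1, 0 at day 3, 0 to 4 at day 28 (4 without exposed replicate 12), 0 to 5 for the mean over days (5 without exposed replicate 12), 0 to 1 for differences between days, 0 to 9 over control days (9 without control replicate 24) and 0 to 3 over exposed days. The differences then ran from -0.04 to 0.19, -0.06 to 0.16 and -0.02 to 0.40 for miR-31 at days 1, 3 and 28 (-0.044 without control replicate 27 and -0.016 without exposed replicate 8), and 0.02 to 0.16 for its mean over days. For miR-375 they ran from 0.32 to 0.76, -0.60 to -0.16 and -0.85 to -0.54, and -0.26 to -0.10 for the mean, and for miR-203 at day 28 from -0.14 to 0.17. Replicate numbers run through the series and each names 1 array, so they give no pairs. Pairs were formed by slide only, and slide was also fitted as a block. Most values of the 4 miRNAs lay near background, which limits what differences could be detected.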
